A study of Homo sapiens with 2 samples.

Results

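The zyxin family LIM genes were examined here for DNA methylation in 2 human acute myeloid leukemia (AML) cell lines. The 7 genes were TRIP6, ZYX, LPP, LIMD1, AJUBA and WTIP, which form the zyxin and AJUBA branches of 1 protein family, and FBLIM1, whose LIM protein migfilin occupies the same adhesion sites. They were chosen by name, out of 20163 protein-coding genes in the annotation used, and all CpG dinucleotides inside them or within 2000 bp of any of their annotated transcription start sites (TSS) were taken. This gave 10438 of the 28217448 CpG dinucleotides listed for each line, around 61 annotated TSS. More than 5 reads in both lines covered 9369 of them (89.8%), and the methylation levels below come from these.

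OCI-AML3 carries a heterozygous R882C mutation in DNMT3A, a de novo DNA methyltransferase, and AML5, which its sample record calls OCI-AML5, is DNMT3A wild type. Both are established lines grown as untreated cultures in serum-containing medium, and each was sequenced as 1 library by whole-genome bisulfite sequencing, in which an unmethylated cytosine is read as thymine and a methylated one as cytosine. With no replicates and different donors behind the lines, the DNMT3A genotype and every other difference between the lines cannot be told apart. The libraries held 902802339 and 894828667 methylation calls, with a median of 27 calls per nuclear CpG in OCI-AML3 and 30 in AML5. At those medians, 3 methylated calls correspond to levels of 11.1% and 10.0% at a single CpG. No RNA was measured in these files, so nothing below refers to transcript levels.

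LIM domains are paired zinc fingers that bind other proteins. Proteins of the zyxin branch carry them at the C-terminal end behind a proline-rich region that recruits actin regulators to focal adhesions and stress fibers, and they also shuttle to the nucleus. The AJUBA branch (AJUBA, LIMD1 and WTIP) binds the LATS kinases of the Hippo pathway and takes part in microRNA-mediated silencing. In most genes, CpG-dense promoters are unmethylated and gene bodies are methylated, and dense methylation around a TSS is generally associated with a silent promoter.

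The following genomic stretches (GRCh37, plus strand, CG dinucleotides in capitals) carry the patterns described below. They are shown because TRIP6 was methylated in AML5 alone, ZYX was unmethylated in both lines and WTIP was methylated more in OCI-AML3, all directly upstream of a TSS. None overlaps an annotated exon.
TRIP6, chr7:100464809-100465008, 200 bases ending at the base before the TSS: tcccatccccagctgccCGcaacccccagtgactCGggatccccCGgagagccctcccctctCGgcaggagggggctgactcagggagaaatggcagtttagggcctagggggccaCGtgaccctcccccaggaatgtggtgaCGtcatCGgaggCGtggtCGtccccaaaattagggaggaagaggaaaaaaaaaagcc
ZYX, chr7:143078238-143078387, 150 bases ending at the base before the most upstream TSS: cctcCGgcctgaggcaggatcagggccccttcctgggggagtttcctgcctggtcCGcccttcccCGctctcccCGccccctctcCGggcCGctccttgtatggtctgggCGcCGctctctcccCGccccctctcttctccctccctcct
WTIP, chr19:34972563-34972662, 100 bases ending at the base before the TSS: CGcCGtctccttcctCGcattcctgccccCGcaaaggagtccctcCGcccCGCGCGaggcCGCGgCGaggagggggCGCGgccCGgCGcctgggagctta

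In the TRIP6 stretch, 1 of 255 calls was methylated in OCI-AML3 and 140 of 172 in AML5, over 9 CpG dinucleotides. In the ZYX stretch, also with 9 CpG dinucleotides, 0 of 226 calls were methylated in OCI-AML3 and 0 of 144 in AML5. The WTIP stretch had 15 CpG dinucleotides, and 409 of 479 calls were methylated in OCI-AML3 against 42 of 235 in AML5. The 3 promoters thus differed in CpG content as well as in state. Over the 200 bases upstream of the canonical TSS (that of the transcript the annotation marks as representative), TRIP6 held 9 CG dinucleotides at 62.5% G and C, ZYX 14 at 73.0% and WTIP 29 at 79.0%.

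Letters of common promoter motifs were searched on both strands in the same 200 bases of 19881 protein-coding genes. The GC box letters GGGCGG occurred in 56.4% of these promoters, 7 times in that of FBLIM1, 4 times in that of ZYX, 3 times in that of WTIP, 2 times in that of AJUBA, 1 time in that of LPP and not in those of TRIP6 and LIMD1. TRIP6 held 1 match each of CACGTG, the E-box letters (6.94% of promoters), TGACTCA, the AP-1 letters (2.48%), and TGACGTCA, the cyclic AMP response element letters (2.29%). The last of these was added after the TRIP6 sequence had been seen. The CACGTG match spans bases 115 to 120 of the printed stretch, and its CpG had 0 methylated of 22 reads in OCI-AML3 and 12 of 22 in AML5. The TGACGTCA match spans bases 141 to 148, and its CpG had 0 of 32 in OCI-AML3 and 19 of 21 in AML5. A match is a description of letters only, and binding was not measured.

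The first question was how many of the 7 promoters differed between the lines. A promoter reached 2000 bp to each side of the first annotated TSS, its level was the mean over the CpG dinucleotides inside, and a difference of over 20 percentage points was counted. TRIP6 was lower in OCI-AML3 by that measure, 0 members were higher, and the other 6 lay within it, between −7.63 and +10.1 percentage points. Over the 19667 protein-coding genes with at least 10 such CpG dinucleotides, 8.61% of promoters were lower by this measure and 1.79% higher, with a median difference of −4.68. The median of the 7 members was −3.36. A promoter under 20% in AML5, such as that of ZYX, could not be lower by this measure. Of all promoters, 23.6% were under 20% there. Among the 3731 promoters above 80% in AML5, where TRIP6 and LIMD1 lay, 17.1% were lower by it. Counting differences of over 10 percentage points (26.0% of all promoters lower and 4.43% higher) left TRIP6 as the 1 lower member and made ZYX 1 higher member, and at over 30 (3.17% and 0.737%) TRIP6 alone was counted. The ZYX difference of 10.1 lay at that mark, with 9.66 where at least 10 reads were required. WTIP, at 8.64, passed it with 12.0 when 1000 bp on either side were used and with 18.5 in the 2000 bp upstream. TRIP6 is among the genes that the study picked on these same libraries for a hypomethylated promoter, so its value describes that choice. The study also required higher expression in OCI-AML3 and promoter hypomethylation in patients with DNMT3A mutations. It then measured transcripts of the picked genes in both lines.

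**Figure D1:**
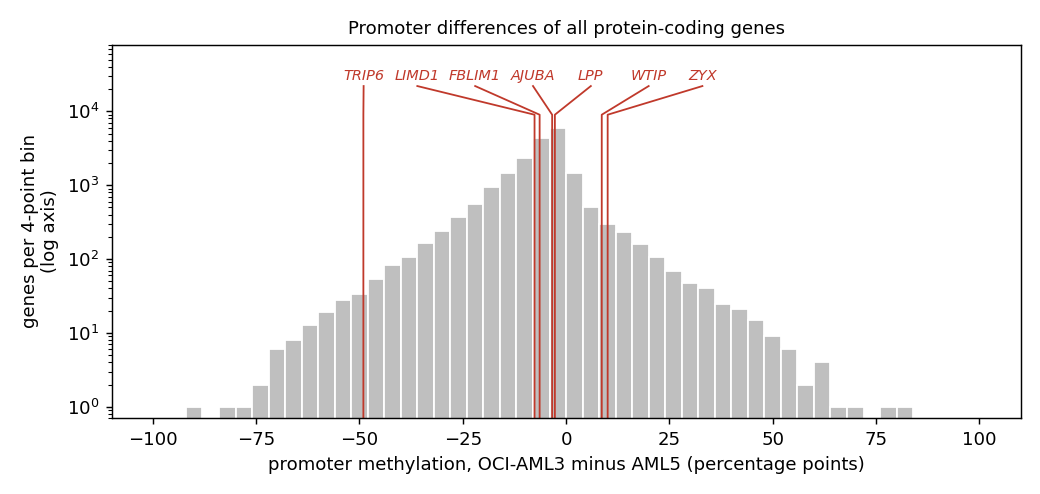
Difference in mean promoter methylation (OCI-AML3 minus AML5, percentage points, x axis) for 19667 protein-coding genes in 4-point bins (y axis, number of genes, logarithmic), with the 7 genes marked by red lines. TRIP6 stands at −49.1, far in the lower tail, and the other 6 lie between −7.63 and +10.1. LPP, LIMD1, AJUBA and FBLIM1 are within the bulk of genes. ZYX and WTIP are in the upper tail, at ranks 18798 and 18676 of 19667 counted from the largest decrease.

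TRIP6 (gene ENSG00000087077, chr7:100465009-100471076, plus strand) encodes an adaptor of focal adhesions that also acts with nuclear transcription factors. The mean promoter level was 44.5% in OCI-AML3 against 93.5% in AML5 over 167 CpG dinucleotides, and this decrease ranked 105 of 19667. By calls, 52.3% of 11792 (Wilson 95% interval 51.4–53.2%) were methylated in OCI-AML3 and 94.1% of 5279 (93.5–94.7%) in AML5. These intervals cover read sampling only, treat calls on 1 read as independent and leave out any variation between cultures. The window mean hides a sharp shape, since 77 of the 167 CpG dinucleotides were above 80% in AML5 and below 20% in OCI-AML3, while 68 stayed above 80% in OCI-AML3.

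**Figure D2:**
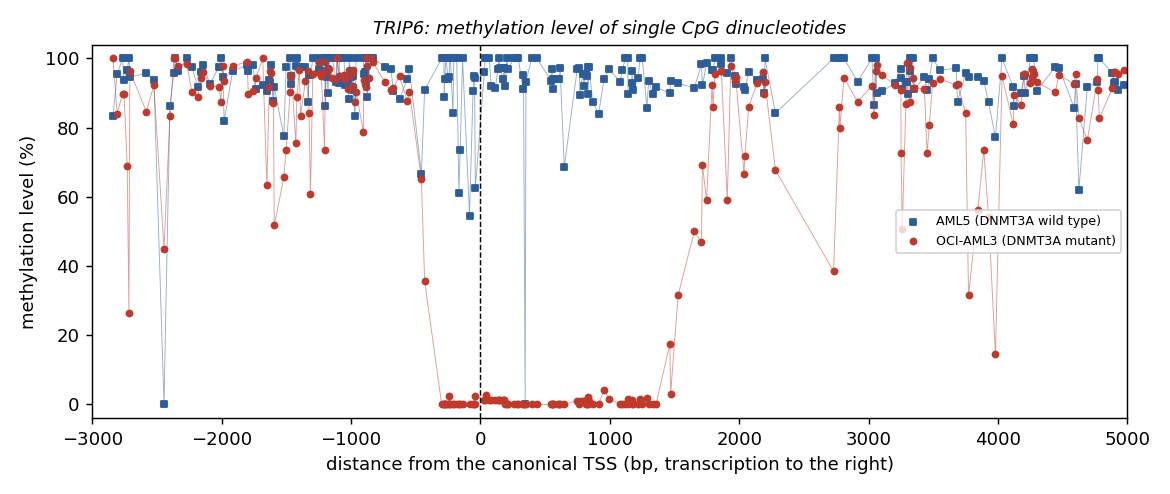
Methylation level (%, y axis) of single CpG dinucleotides at TRIP6 against the distance from the canonical TSS (bp, x axis; dashed line, TSS) in OCI-AML3 (red circles) and AML5 (blue squares). OCI-AML3 is at or near 0 from −299 to +1357, where AML5 stays mostly above 80%, and both lines are high further upstream and beyond the downstream edge.

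The low stretch of TRIP6 ran from −299 to +1357 relative to the TSS (chr7:100464710-100466366), across exon 1, which holds the start codon, and the exons that follow. It was set as the consecutive CpG dinucleotides around the TSS with under 5% in OCI-AML3. Its low values in that line therefore follow from the choice, while AML5 levels were not used for it. Its 81 CpG dinucleotides averaged 0.5001% in OCI-AML3 against 92.3% in AML5. In OCI-AML3, 30 of 4668 calls were methylated, the highest single CpG was at 4.11%, and 55 CpG dinucleotides had no methylated read. In AML5 all but the CpG at +346 lay between 54.5% and 100%, and 75 were above 80%. Fisher's exact test on the calls, with Benjamini–Hochberg adjustment over all 24454751 nuclear CpG dinucleotides tested, called 80 of the 81 lower in OCI-AML3. The test compares 2 libraries and not 2 genotypes, here on CpG dinucleotides picked for low levels in OCI-AML3. Among all nuclear CpG dinucleotides it called 14.7% lower and 3.86% higher. Only the CpG at +346 had no methylated read in either line, 0 of 19 and 0 of 17, and whether a sequence variant removes this CpG was not tested.

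The upstream edge of the stretch was steep. The CpG at −456 had 15 methylated of 23 reads in OCI-AML3 and 12 of 18 in AML5, and the next, at −431, had 5 of 14 and 10 of 11. Further upstream, from −2000 to −500, the mean was 91.1% in OCI-AML3 against 94.97% in AML5 over 68 CpG dinucleotides. The downstream edge was more gradual and uneven. In OCI-AML3 the level was 17.5% at +1464, 3.08% at +1470, 31.6% at +1528 and 50.0% at +1653. It was then 47.0% at +1708, 69.2% at +1716 and 59.0% at +1748. At these CpG dinucleotides AML5 lay between 90.0% (+1464) and 98.6% (+1748). Because the flanks are high in both lines, the window sets the size of the difference, which was −23.3 percentage points when only the 2000 bp upstream were used. In the 500 bp on either side of the TSS it was −88.1, with 2.66% in OCI-AML3 against 90.8% in AML5, rank 12 of the 17523 genes with at least 10 CpG dinucleotides there. Of these genes 8.77% were lower by over 20 percentage points and 3.42% higher. A canonical TSS above 80% in AML5 and below 20% in OCI-AML3 was found in 0.36% of those genes.

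Past the promoter window, the TRIP6 body had 85.0% in OCI-AML3 against 93.1% in AML5 over 88 CpG dinucleotides, with 13 called lower and 1 higher. A run of 5 CpG dinucleotides in the intron after exon 6, from +3772 to +3981, had 46.0% in OCI-AML3 against 89.5% in AML5. A run of 3 in exon 9, from +5757 to +5835, had 64.5% and 96.9%. The annotation places alternative TRIP6 starts at +111, +909 and +3396. Within 500 bp of the start at +909, 38 CpG dinucleotides averaged 0.501% in OCI-AML3 against 93.5% in AML5, and around the start at +3396 the levels were 84.9% and 94.3% (28 CpG dinucleotides). The hypomethylated stretch covered the starts at the 5′ end and not the internal one. In the CpG-dense stretch (500-bp windows with at least 55% G and C and an observed-to-expected CpG ratio of 0.65) that begins at +7037, past the end of the gene, the level was 1.64% in OCI-AML3 against 9.80% in AML5. No such stretch was found at the TRIP6 promoter itself.

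Read depth differed between the lines at several of the genes, most at the 2 on chromosome 7. The ratio of calls in OCI-AML3 to AML5 was 2.14 at TRIP6 and 1.95 at ZYX, against 1.01 over the genome, and 1.81 and 1.53 with 500 kb on either side included. It was 1.46 at AJUBA and 1.26 at WTIP (1.07 and 1.08 with the flanks), 0.845 at LPP (0.868), 1.08 at FBLIM1 and 1.04 at LIMD1. In the TRIP6 low stretch OCI-AML3 had 57.6 reads per CpG and AML5 27.8. Leaving out CpG dinucleotides with over 3 times the median depth moved the TRIP6 promoter difference to −59.8 and the ZYX promoter difference from 10.1 to 8.60. The part of copy number in these values was not tested.

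**Figure D3:**
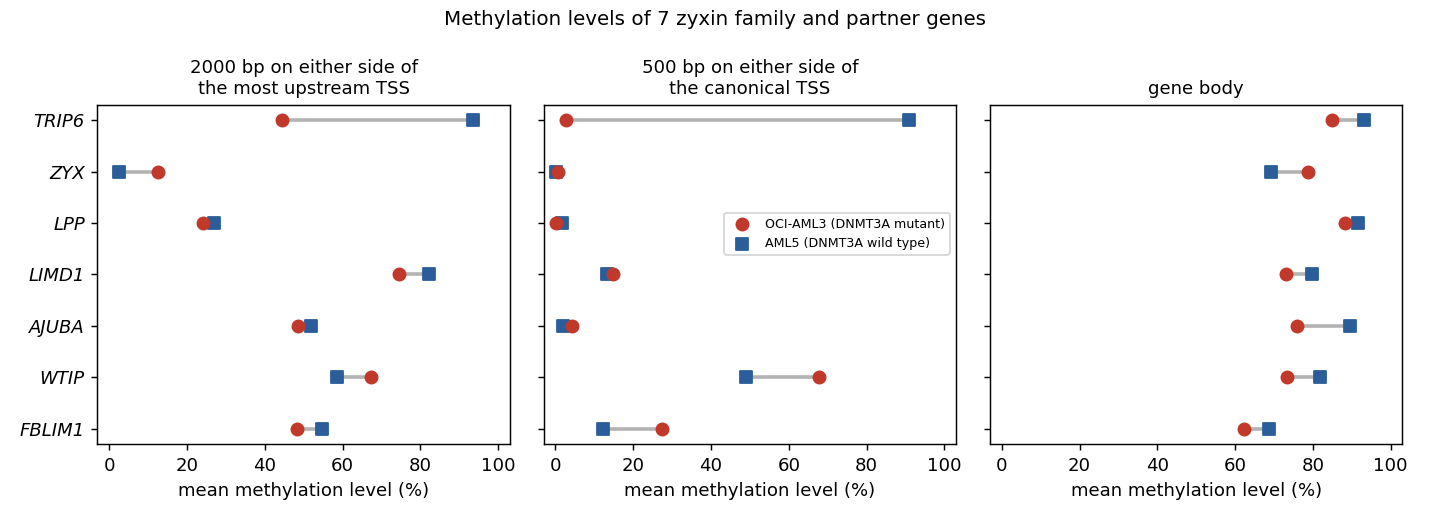
Mean methylation level (%, x axis) of each gene (y axis) in OCI-AML3 (red circles) and AML5 (blue squares) in 3 regions, joined by a grey line for each gene. TRIP6 alone spans most of the axis at its TSS (2.66% and 90.8%), ZYX, LPP, LIMD1 and AJUBA are low in both lines there, and WTIP and FBLIM1 are higher in OCI-AML3.

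The order of the 7 promoters differed between the lines, each read from 1 library. In AML5 the levels ran from ZYX (2.47%) through LPP (26.8%), AJUBA (51.8%), FBLIM1 (54.7%), WTIP (58.6%) and LIMD1 (82.2%) to TRIP6 (93.5%). In OCI-AML3 TRIP6 (44.5%) fell between LPP (24.1%) and FBLIM1 (48.3%), which had nearly the same level as AJUBA (48.4%). Around the canonical TSS (500 bp on either side), 4 members had under 20% in both lines, as did 63.6% of all genes measured. ZYX had 0.552% in OCI-AML3 against 0.0405% in AML5, LPP 0.173% and 1.71%, AJUBA 4.20% and 1.89%, and LIMD1 14.7% and 13.3%. The remaining WTIP and FBLIM1 were higher in OCI-AML3 by over 10 percentage points, as were 6.23% of genes. TRIP6 was thus the one member whose canonical TSS was methylated in AML5 and unmethylated in OCI-AML3.

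ZYX (ENSG00000159840, chr7:143078388-143088204, plus strand), whose product zyxin is a tension-responsive component of focal adhesions and stress fibers, changed in the opposite direction to TRIP6. Its promoter window had 12.5% in OCI-AML3 against 2.47% in AML5 over 198 CpG dinucleotides, with 27 called higher in OCI-AML3 and none lower. A promoter higher in OCI-AML3 by over 10 percentage points was found in 4.43% of genes. The unmethylated core was shared by the lines: from −1300 to +700 relative to the canonical TSS, the mean of 170 CpG dinucleotides was 1.69% in OCI-AML3 against 0.159% in AML5, and 140 had no methylated read in OCI-AML3. The difference lay at the edges of this core. From −2000 to −1300, the levels were 71.9% in OCI-AML3 against 27.5% in AML5 (11 CpG dinucleotides). The bounds of the core and of this edge were chosen after the profile had been seen. With only 1000 bp on either side the promoter difference was 3.21.

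The largest ZYX difference was inside the gene. A run of 14 CpG dinucleotides across exons 4 and 5, from +1283 to +2083, had 97.2% in OCI-AML3 against 17.8% in AML5. In the intron after exon 5, a run of 8 from +2760 to +3231 had 57.2% and 7.49%, and another of 8 from +3649 to +4099 had 87.2% and 19.03%. The stretch from +700 to +2500 as a whole had 86.0% in OCI-AML3 against 21.1% in AML5 over 25 CpG dinucleotides, of which 22 were called higher. Its bounds were chosen after the profile had been seen, so the difference and the count follow in part from that choice. All 6 runs found in ZYX were higher in OCI-AML3. Around the internal start of ZYX-205, 1655 bp from the canonical one, the level within 500 bp was 97.2% in OCI-AML3 against 25.2% in AML5 over 16 CpG dinucleotides. Around the most downstream start the lines had 92.0% and 93.1%.

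The ZYX body, counted from 2000 bp inside the most upstream TSS and so including the runs in the intron after exon 5, had 78.8% and 69.3% over 156 CpG dinucleotides, with 28 called higher and 2 lower. The difference of 9.50 percentage points was 6.01 without CpG dinucleotides over 3 times the median depth. A lower mean in OCI-AML3 was the usual finding, in 92.9% of 18292 gene bodies, and ZYX was the only member of the 7 without it. No member body differed by over 20 percentage points, as 7.58% of bodies did downward and 0.541% upward. FAM131B-AS2, a long noncoding RNA gene on the other strand that starts 259 bp upstream of ZYX, shares the window and had 11.7% in OCI-AML3 against 3.60% in AML5. Bisulfite calls of the 2 genes' shared CpG dinucleotides cannot be assigned to 1 of them. The 2 chromosome 7 members thus showed opposite changes, a methylated TSS that was unmethylated in OCI-AML3 for TRIP6 and a wider unmethylated core in AML5 for ZYX.

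**Figure D4:**
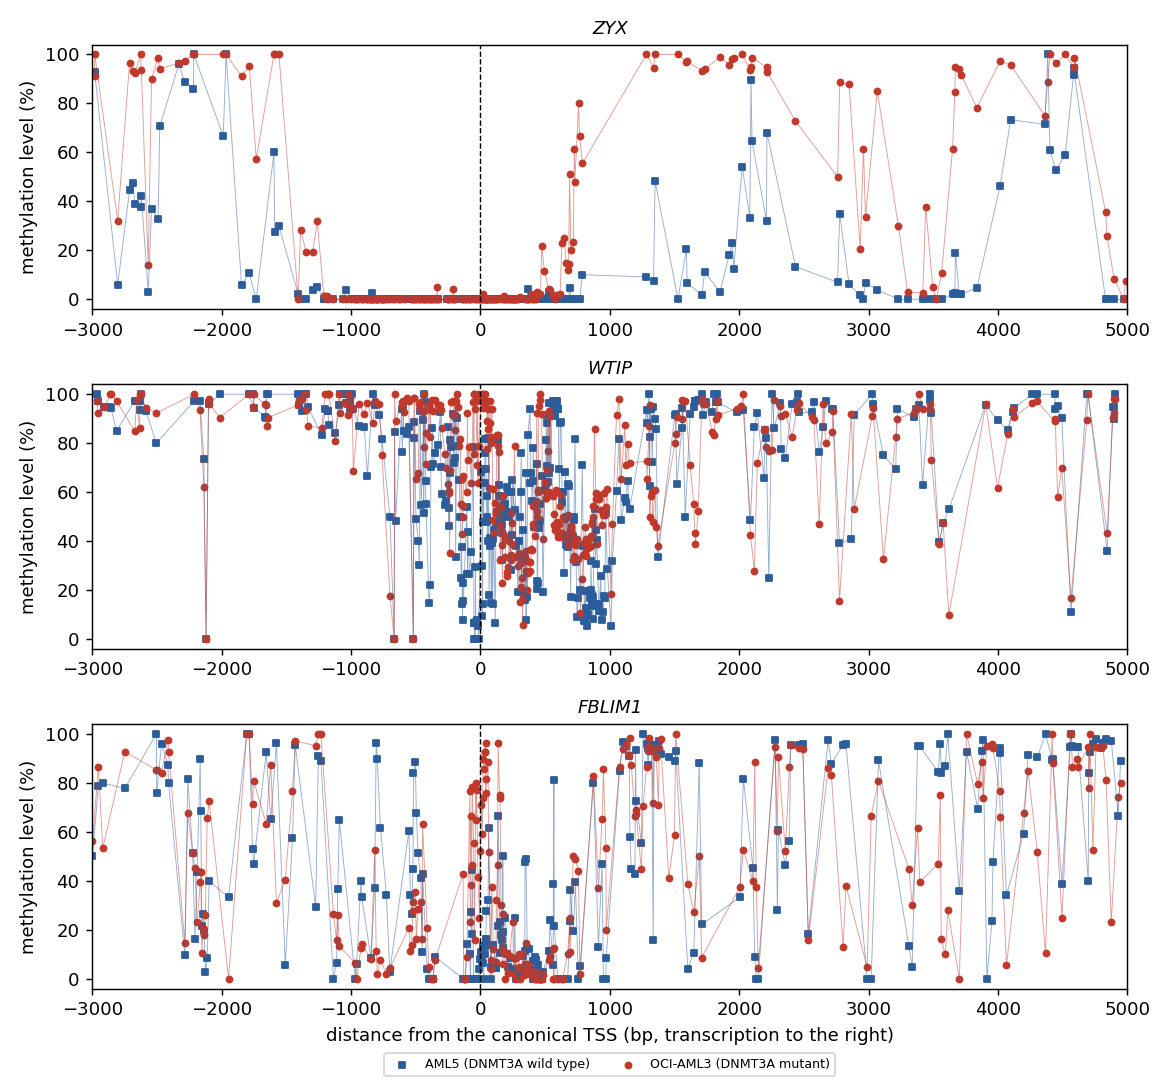
Methylation level (%, y axis) of single CpG dinucleotides at ZYX, WTIP and FBLIM1 against the distance from each canonical TSS (bp, x axis; dashed line, TSS) in OCI-AML3 (red circles) and AML5 (blue squares). ZYX is at or near 0 in both lines around the TSS and high in OCI-AML3 from +1283 to +2083, and at WTIP and FBLIM1 OCI-AML3 is the higher line in a narrow zone at the TSS.

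WTIP (ENSG00000142279, chr19:34972663-35003209, plus strand) encodes an AJUBA branch protein first described through its binding to the WT1 protein. Its promoter had 67.2% in OCI-AML3 against 58.6% in AML5 over 310 CpG dinucleotides, with 74 called higher and 31 lower. Within 100 bp of the TSS the levels were 87.5% and 35.9% over 39 CpG dinucleotides, of which 30 were called higher and none lower. This span was chosen after the profile had been seen, so its count follows in part from the choice. The run with the most CpG dinucleotides, 15 from −50 to +18, had 91.3% in OCI-AML3 against 17.0% in AML5, and the next, 7 from +67 to +96, had 78.8% and 29.3%. The direction changed within exon 1, where a run of 10 from +558 to +602 had 48.5% in OCI-AML3 against 95.1% in AML5. A promoter run of at least 10 CpG dinucleotides was found in 4.91% of genes for higher levels in OCI-AML3 and in 16.6% for lower levels, and WTIP had 1 of each.

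The WTIP body went with most genes, at 73.3% in OCI-AML3 against 81.7% in AML5 over 616 CpG dinucleotides. Exon 8, the last one, held 5 lower runs, and in the largest, 8 CpG dinucleotides from +19559 to +19667, the levels were 20.7% and 94.1%. Intermediate levels were common at the WTIP promoter, where 176 of 310 CpG dinucleotides were between 20% and 80% in OCI-AML3 and 157 in AML5. At TRIP6, 16 of 167 were intermediate in OCI-AML3 and 7 in AML5. The call tables do not hold whole reads, so whether intermediate levels came from 2 alleles or from mixed cells was not tested.

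FBLIM1 (ENSG00000162458, chr1:16083102-16113089, plus strand) encodes migfilin, which links filamin and kindlin proteins at cell–matrix adhesions. Its most upstream TSS lay 2177 bp before the group of starts that holds the canonical one, and the sign of the difference depended on which was used. The upstream window had 48.3% in OCI-AML3 against 54.7% in AML5 over 82 CpG dinucleotides, and the window of the canonical group had 37.7% and 31.4% over 181, with 29 called higher and 21 lower. Within 100 bp of the canonical TSS the levels were 60.4% and 11.9% over 29 CpG dinucleotides, of which 18 were called higher and none lower. That span, too, was picked with the profile known, so its count follows in part from the choice. The run there from −1 to +60 had 79.96% in OCI-AML3 against 13.4% in AML5 over 12 CpG dinucleotides, and a run of 4 from −36 to −18 had 66.0% and 0.00%.

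Less than 1000 bp upstream, the FBLIM1 direction turned. From −1000 to −500, a span also picked with the profile known, the levels were 15.4% in OCI-AML3 against 44.1% in AML5. Of its 17 CpG dinucleotides, 7 were called lower and none higher. In the intron after exon 3, a run of 4 from +7080 to +7180 was higher in OCI-AML3, at 80.6% against 4.82%, and another of 4 from +7246 to +7382 had 80.1% and 16.6%. In the intron after exon 6, a run of 12 from +14809 to +15197 had 19.7% and 79.3%, and a run of 8 from +14458 to +14742 had 9.26% and 86.2%. A run of 5 in exon 9 from +26530 to +26709 had 14.2% and 96.1%. FBLIM1 held the most runs of the 7 genes, 15 lower and 7 higher. Depth in OCI-AML3 ranged from 27.4 reads per CpG at LPP to 71.4 at TRIP6, with 36.4 at FBLIM1. The part of depth and of CpG spacing in such counts was not tested. Of the FBLIM1 CpG dinucleotides, 19.5% were called lower and 9.54% higher. Over all gene bodies these shares were 13.0% and 3.02%.

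LPP and LIMD1, the longest members, kept low levels around their canonical TSS and were lower in OCI-AML3 in short runs, mostly within introns. LPP (ENSG00000145012, chr3:187871072-188608460, plus strand), the lipoma-preferred partner of the zyxin branch, had a promoter level of 24.1% in OCI-AML3 against 26.8% in AML5 over 149 CpG dinucleotides. Its body had 88.1% and 91.6% over 5118, and 5.30% of its CpG dinucleotides were called lower and 1.16% higher, shares below those of all gene bodies. There were 15 lower runs and 1 higher run across 737 kb, all in introns. The longest lower ones were 8 CpG dinucleotides in intron 1 from +59896 to +60176, with 3.62% in OCI-AML3 against 79.2% in AML5, then 7 in intron 7 from +533648 to +533763 (38.0% and 92.9%) and 6 in intron 2 from +118154 to +118341 (37.6% and 91.6%). The one higher run, 4 CpG dinucleotides in intron 6 from +430160 to +430332, had 67.3% and 11.7%. LPP-AS2, a long noncoding RNA gene on the other strand, starts 785 bp downstream of the most upstream LPP TSS and shares its window. The window of LPP-AS2 had 26.0% in OCI-AML3 against 28.6% in AML5.

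LIMD1 (ENSG00000144791, chr3:45596886-45727833, plus strand) encodes an AJUBA branch scaffold described as a tumor suppressor in the lung. Its most upstream TSS belongs to a transcript without a defined coding sequence that starts 39357 bp before the canonical one, in a CpG-poor stretch where the lines had 74.6% and 82.2% over 36 CpG dinucleotides. The window of the canonical TSS had 12.9% in OCI-AML3 against 15.1% in AML5 over 180. From −1600 to +100 the lines averaged 1.60% and 2.53% (143 CpG dinucleotides). From +1000 to +3500, in exon 1 and intron 1, they were 45.6% and 66.7% over 38, with 17 called lower and none higher. Both spans were chosen after the profile had been seen, so this count follows in part from the choice. LIMD1 held 14 lower runs and no higher one, and none lay in the promoter window of the most upstream TSS. The window of the canonical TSS held 2, each of 3 CpG dinucleotides in exon 1, from +1202 to +1238 (25.4% and 72.7%) and from +1491 to +1520 (4.44% and 33.2%). Lower runs of at least 3 CpG dinucleotides touched 61.7% of promoters. The run with the most CpG dinucleotides, 12 in intron 2 from +61790 to +62065, had 3.63% in OCI-AML3 against 61.3% in AML5. In intron 1, a run of 8 from +34270 to +34577 had 7.02% and 85.7%, and a run of 8 upstream of the canonical TSS, from −34410 to −34187, had 15.2% and 69.97%.

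**Figure D5:**
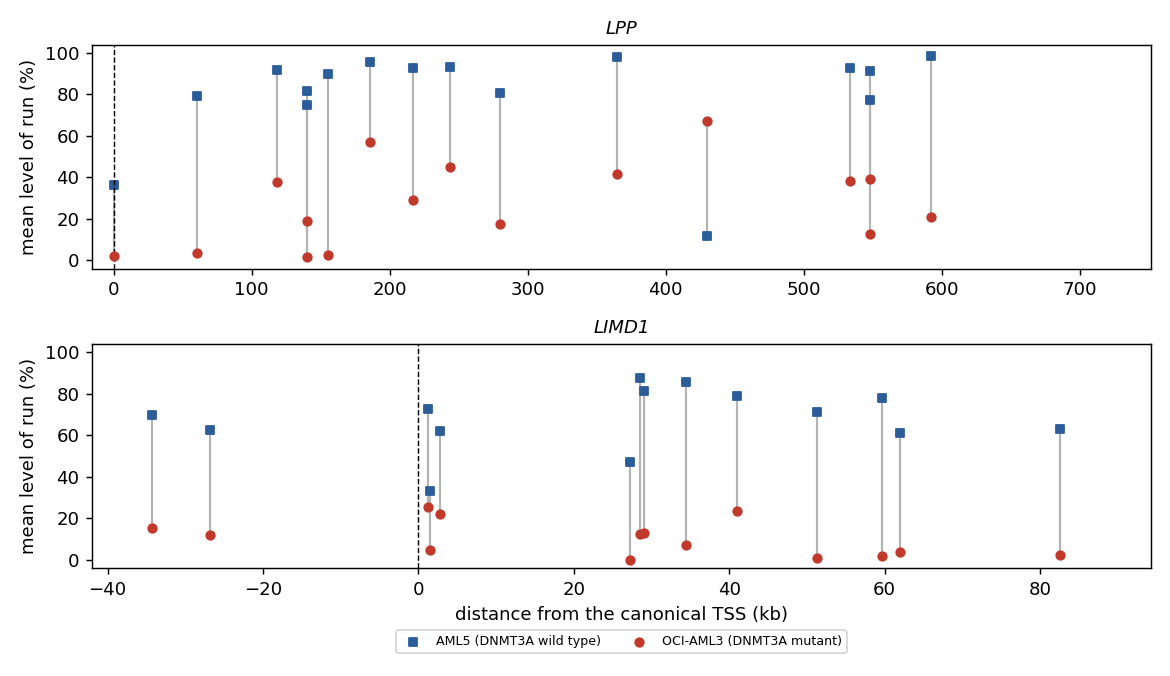
Mean methylation level (%, y axis) of each run of called CpG dinucleotides along LPP and LIMD1 against the distance of the run's middle from the canonical TSS (kb, x axis; dashed line, TSS), with OCI-AML3 as red circles, AML5 as blue squares and a grey line joining the values of 1 run. OCI-AML3 is the lower line in 15 of 16 runs of LPP and in all 14 of LIMD1.

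AJUBA (ENSG00000129474, chr14:23440386-23451760, minus strand) encodes a scaffold of adherens junctions that binds the LATS kinases. Its promoter had 48.4% in OCI-AML3 against 51.8% in AML5 over 254 CpG dinucleotides, with 24 called lower and 15 higher. From −700 to +300 the levels were 1.01% and 0.644% over 65 CpG dinucleotides, and 1000 bp on either side gave a difference of +1.48 in place of −3.36. A run of 5 in exon 1, from +291 to +355, had 27.7% in OCI-AML3 against 2.73% in AML5. Runs of 3 in the same exon had 65.0% and 96.8% (from +859 to +887) and 61.5% and 96.0% (from +1189 to +1205). The body, from 2000 bp inside the TSS, had 75.9% in OCI-AML3 against 89.5% in AML5 (85 CpG dinucleotides), with 18 called lower and none higher. This was the largest body decrease of the 7 genes, at −13.5 percentage points, but over the whole annotated gene it was −5.69, against −41.2 for TRIP6, −6.78 for LIMD1 and −6.35 for FBLIM1. A body lower by over 10 percentage points was found in 25.1% of genes. The divergent gene AJUBA-DT, which starts 147 bp upstream, and a readthrough gene that starts 293 bp downstream share this promoter, and their own windows had 47.5% and 47.7% in OCI-AML3 and 51.1% and 51.3% in AML5.

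Over all 7 genes, 852 CpG dinucleotides (9.09%) were called lower in OCI-AML3 and 303 (3.23%) higher. Both shares are below those of the genome, 14.7% and 3.86%, and LPP alone supplied 5267 of the 9369 CpG dinucleotides tested. TRIP6 had 107 called lower and 1 higher of 255, whereas ZYX had 2 lower and 55 higher of 354. Runs of at least 3 called CpG dinucleotides with gaps of at most 300 bp numbered 60 lower and 22 higher. Their number over the genome is not given here, but 61.7% of all promoters held a lower run and 19.3% a higher one. CpG dinucleotides above 80% in AML5 and below 20% in OCI-AML3 were 77 of 255 in TRIP6 and 26 of 713 in FBLIM1. They were 32 of 1515 in LIMD1, 13 of 926 in WTIP, 5 of 339 in AJUBA, 47 of 5267 in LPP and 0 of 354 in ZYX. Out of the same totals, the reverse change was seen at 17 in ZYX, 14 in FBLIM1 and 8 in WTIP. It was seen at 4 in LPP, 1 in LIMD1, 1 in AJUBA and 0 in TRIP6. The share of either change over all CpG dinucleotides was not computed.

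Genes that work with the family were read in 3 lists, all of whose members were measured. Of 33 other LIM genes of adhesion sites and the cytoskeleton, 6 promoters were lower by over 20 percentage points and 0 higher, with a median of −5.99 against −4.68 over all promoters. This is a larger share than the 8.61% of all promoters lower by that measure, and the difference in share was not tested. The 6 were FHL5 (50.2% in OCI-AML3 against 89.5% in AML5), CRIP1 (21.05% and 55.6%), PRICKLE2 (36.6% and 66.7%), FHL2 (48.6% and 77.9%), PDLIM4 (62.2% and 89.8%) and TGFB1I1 (45.9% and 68.2%). FHL2 is a LIM-only cofactor and TGFB1I1 is the paxillin relative Hic-5. None of the 6 reached the TRIP6 difference of −49.1. In the other direction, TES (+19.9), LIMCH1 (+15.98) and PDLIM3 (+11.05) were higher in OCI-AML3 by over 10 percentage points, as were 4.43% of all promoters. By any amount, 25 of the 33 were lower, against 84.7% of all promoters.

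Of 22 adhesion partners, which include the zyxin ligands VASP and ENAH, the alpha-actinins and the kindlins, 1 promoter was lower and 0 higher, with a median of −6.14. It was SRC, the tyrosine kinase that phosphorylates many adhesion proteins, at 27.4% in OCI-AML3 against 57.9% in AML5. Of 24 Hippo pathway genes, 2 were lower and 0 higher, with a median of −4.70. They were TEAD1, the DNA-binding partner of the coactivator YAP1 (14.3% and 48.1%), and VGLL4, a competitor for TEAD proteins (64.4% and 85.5%). Set against the 8.61% of all promoters, the counts of 1 of 22 and 2 of 24 are near or below the background, while 6 of 33 in the first list is above it. Promoters under 20% in AML5 could not be lower by this measure. They were 7 of the 33, 7 of the 22 and 5 of the 24, against 23.6% of all promoters.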

How the data were processed

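Genomic DNA of OCI-AML3 and AML5 was sheared, bisulfite converted and sequenced as paired-end reads by the authors, with 1 library per line. Per the submitters' processing notes the reads were aligned to hg19 with Bismark and Bowtie 0.12.8. The deposited values are counts of methylated and unmethylated calls for each CpG dinucleotide, with no normalization or smoothing and with both strands already added. Whether duplicate reads were removed is not given in the sources used here. The listed positions matched GRCh37, where 99.8% of them fall on a CG.

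A level is the methylated share of calls at 1 CpG. CpG dinucleotides needed more than 5 reads in each line, and region levels are their means. TSS, exons and gene ends came from a GENCODE annotation lifted to GRCh37, and 7 transcripts with incomplete starts were left out of the listed TSS. The most upstream TSS of a gene was its annotated start. That of ZYX, chr7:143078388, is not among the complete starts, the first of which is the canonical one at chr7:143078438. The gene body ran from 2000 bp inside the most upstream TSS to the gene end. Single CpG dinucleotides were compared by a two-sided Fisher's exact test with Benjamini–Hochberg adjustment over all nuclear CpG dinucleotides, called at 0.05. Shares of calls carry Wilson 95% intervals, which cover read sampling only. On simulated calls at chromosome 21 depths, 71.8% of CpG dinucleotides lowered by 50 percentage points and 7.40% of those lowered by 20 were recovered, with 23 false calls among 334471 unchanged ones. No test against variation between cultures could be made.

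All 7 genes were named, with up to 3 of the runs with the most CpG dinucleotides per direction, up to 6 list genes per direction beyond 20 percentage points, and neighbors starting within 5000 bp of a promoter window. TES, LIMCH1 and PDLIM3, which lay under 20 percentage points, were added afterwards. Stretches of TRIP6, ZYX, WTIP, FBLIM1, LIMD1 and AJUBA given by distance from the TSS, and further runs, were chosen after the profiles had been seen. The genes, lists and tests were chosen with earlier results of these data known. Alternatives covered the minimum reads, averaging over calls, CpG dinucleotides of high depth, the window and TSS, the threshold, and the run definition, including smoothed profiles. Calculations used matplotlib 3.10.9, numba 0.67.0, pandas 2.3.3 and numpy 2.4.6 under Python 3.11.15.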

Additional observations from a re-analysis of the deposited data

How the results depend on the processing

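TRIP6 remained the 1 gene of the 7 with a promoter lower by over 20 percentage points under every alternative tried, namely other read minima, weighting by calls, leaving out CpG dinucleotides of high depth, other windows and TSS, and thresholds of 10 and 30 percentage points. The size of its difference, −49.1, moved to −41.8 as a share of calls, −59.8 without CpG dinucleotides over 3 times the median depth, −70.4 with 1000 bp on either side, −23.3 with 2000 bp upstream only and −36.3 over every annotated TSS. Signs turned for AJUBA (+1.48 with 1000 bp on either side) and FBLIM1 (+1.47 with 1000 bp on either side and +6.23 at the canonical TSS). Over these alternatives the promoter difference ranged from 3.21 to 14.8 for ZYX, from 7.68 to 18.5 for WTIP, from −5.09 to −1.61 for LPP, from −9.30 to −2.19 for LIMD1, from −6.72 to +1.48 for AJUBA and from −9.49 to +6.23 for FBLIM1. ZYX passed 10 percentage points at 10.1, with at least 1 read, as a share of calls and at the canonical TSS, and was below that under the other 5 alternatives. The gene body differences kept their signs under all 5 alternatives each, but not their size. Over the whole gene TRIP6 went from −8.07 to −41.2, AJUBA from −13.5 to −5.69 and WTIP from −8.43 to −5.545. LIMD1 went from −6.74 to −10.7 as a share of calls, and ZYX from 9.50 to 6.01 without CpG dinucleotides of high depth. Counts of called CpG dinucleotides, 852 lower and 303 higher, stayed between 810 and 835 and between 267 and 300. Runs depended on their definition. The 60 lower and 22 higher runs became 23 and 8 with at least 5 CpG dinucleotides, 62 and 21 with gaps of at most 1000 bp, and 264 and 37 on smoothed profiles with intervals that do not overlap. At the median depth, a level below 11.1% in OCI-AML3 or 10.0% in AML5 rests on fewer than 3 methylated calls per CpG. No paired analysis was possible because each line has 1 library.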
